A study of Mus musculus with 12 samples.

Results

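The genes described here encode the enzymes and the transporter that buffer ATP in muscle: 4 creatine kinases (*Ckm*, *Ckmt2*, *Ckb* and *Ckmt1*), the adenylate kinase *Ak1*, the AMP deaminases *Ampd1* and *Ampd3*, and 3 creatine supply genes (*Slc6a8*, *Gatm* and *Gamt*). They were chosen by function, with earlier results of these data known, and looked up by symbol. All 10 were found among the 55450 genes of the count table. RNA of tibialis anterior (TA) muscle was sequenced from wild-type mice of the 129Pas background at E18.5, late in gestation, and at 2 weeks (wks) and 7 wks after birth. Each age had 4 mice and each mouse gave 1 library, 12 in all. No allele other than wild-type and no treatment is named for any group. The extracts were pieces of whole muscle, so each level reflects every cell type present, and fewer cells of a type cannot be told apart from less RNA per cell.

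Creatine kinases move a phosphate group between ATP and creatine, which lets muscle store phosphocreatine and use it to rebuild ATP during contraction. The muscle form CKM works in the cytosol and at the sarcomere, the brain form CKB prevails in many other tissues, and the mitochondrial forms (the sarcomeric CKMT2 and the ubiquitous CKMT1) charge creatine with phosphate where ATP is made. Adenylate kinase 1 makes ATP and AMP from ADP, AMP deaminase converts AMP to IMP, and creatine is either imported by SLC6A8 or made in sequence by GATM and GAMT, mostly outside muscle.

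Library totals ran from 63018968 to 123449246 counts. The 7 muscle fibre markers were detected in every library, with a summed level of 12642 to 21444 CPM (counts per 1e6 counts, scaled by the trimmed mean of M-values, TMM) before birth, 101547 to 125421 at 2 wks and 113453 to 138934 by 7 wks. Some libraries stood apart within their age in markers of other cells. The adipocyte sum was 1972 and 2700 CPM in E18.5 replicates 3 and 4 against 232 and 179 in replicates 1 and 2. The red blood cell sum was 477 and 756 CPM in 2-wk replicates 1 and 2 against 146 and 148 in replicates 3 and 4. The fibroblast sum ranged from 4630 to 8851 CPM at E18.5, from 3248 to 4843 at 2 wks and from 819 to 2868 by 7 wks. The Schwann cell and nerve sum was 631 CPM in 2-wk replicate 1 and 135 to 242 in the other 2-wk libraries. None of the genes in these 5 lists was at 0 over a whole age, and the part of such cells in the results was not tested.

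The first comparison asked how the genes changed around birth. From E18.5 to 2 wks, 7 of the 10 genes passed the quasi-likelihood test of edgeR (Benjamini-Hochberg adjusted over 19276 genes, threshold 0.05), beside 65.7% of all genes tested, so the count was close to the share of the transcriptome as a whole. *Ckm*, *Ckmt2*, *Ak1*, *Ampd1*, *Ampd3* and *Slc6a8* rose (6 of 10, beside 31.5% of all genes), *Gatm* fell (1 of 10, beside 34.2%), and *Ckb*, *Ckmt1* and *Gamt* did not pass. For the same 7 the libraries of the 2 ages did not overlap, beside 61.3% of all genes. The median log2 fold change of the 10 genes was 1.22, and that of all genes tested was -0.09. The second comparison asked what changed between 2 and 7 wks, when 5 of the 10 passed, beside 27.5% of all genes. *Ampd1* and *Slc6a8* rose (2 of 10, beside 13.5% of all genes) and *Ckb*, *Gamt* and *Gatm* fell (3 of 10, beside 13.9%). The libraries did not overlap for these 5 and for *Ampd3*, 6 genes beside 33.7% of all genes. The median of the 10 was -0.22 against -0.03 for all genes. Between E18.5 and 7 wks, 8 of the 10 passed, beside 71.4% of all genes. The 5 higher genes stood beside 34.3% of all genes and the 3 lower ones beside 37.1%, and for 7 of the 10 the libraries did not overlap, beside 63.4%. These comparisons share libraries, so their counts are not independent.

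Directions depended on the scaling of the libraries. When libraries were scaled to the total count in place of TMM, the median log2 fold change of all genes shifted to -1.02 for E18.5 to 2 wks and to -0.38 for 2 to 7 wks. The split of called genes then moved from 6074 higher and 6594 lower to 2550 higher and 11923 lower in the first interval, and from 2609 and 2687 to 948 and 5392 in the second. Between E18.5 and 7 wks it moved from 6610 higher and 7145 lower to 2291 and 13297. For the 10 genes the split was 5 higher and 1 lower in the first interval, 1 higher and 4 lower in the second, and 5 higher and 5 lower between E18.5 and 7 wks. Directions below are relative to TMM, and those that turn are named.

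*Ckm* (ENSMUSG00000030399; GRCm39 chromosome 7, 19138701 to 19157965, plus strand), the cytosolic muscle creatine kinase, rose sharply before 2 wks and showed no called change after it. At E18.5 its level was 677, 2291, 962 and 1142 CPM in replicates 1 to 4. At 2 wks it was 17430, 17047, 19089 and 20071 CPM, and at 7 wks 14738, 16383, 25631 and 21116 CPM. Every 2-wk library stood above every E18.5 library, and the 2-wk and 7-wk libraries overlapped. The rise to 2 wks was 14.5-fold (log2 fold change 3.86, SE 0.37, edgeR adjusted p = 1.43e-06), and E18.5 replicate 2 had the highest level of its age. From 2 to 7 wks the log2 fold change was 0.08 (SE 0.33, edgeR adjusted p = 0.880), with the sign turning to -0.27 under scaling to the total count. *Ckm* alone took 0.110% to 0.378% of all counts at E18.5, 1.57% to 1.65% at 2 wks and 1.03% to 1.71% by 7 wks. By mean CPM it ranked 35 among all genes tested at E18.5, 8 at 2 wks and 12 by 7 wks.

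*Ckmt2* (ENSMUSG00000021622; chromosome 13, 92001503 to 92025608, minus strand), the sarcomeric mitochondrial form of the enzyme, also rose before 2 wks. Its level was 177, 174, 107 and 188 CPM at E18.5. It was 1568, 1942, 3428 and 4259 CPM at 2 wks and 3536, 4940, 4983 and 4189 CPM at 7 wks. All 2-wk libraries were above all E18.5 libraries, but at 2 wks replicates 1 and 2 lay well below replicates 3 and 4, the same division as in the red blood cell markers. The rise to 2 wks was 17.3-fold (log2 fold change 4.12, SE 0.34, edgeR adjusted p = 4.19e-07). From 2 to 7 wks the log2 fold change was 0.66 (SE 0.30) and did not pass (edgeR adjusted p = 0.117). Without 2-wk replicates 3 and 4 it was 1.33 and passed (edgeR adjusted p = 0.00571), and without replicate 4 alone it was 0.93 and passed (edgeR adjusted p = 0.0340). The share of counts from mitochondrially encoded genes moved the same way, at 7.81% and 8.13% in 2-wk replicates 1 and 2 and 10.1% and 10.3% in replicates 3 and 4, against 3.27% to 7.58% at E18.5 and 12.9% to 16.02% at 7 wks. Its part in the level of *Ckmt2* was not tested.

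*Ckb* (ENSMUSG00000001270; chromosome 12, 111635789 to 111639008, minus strand), the brain-type cytosolic enzyme, was low at all ages and fell after 2 wks. It read 3.91, 15.4, 5.38 and 5.02 CPM at E18.5. The 2-wk libraries read 15.2, 13.7, 12.4 and 14.4 CPM and the 7-wk libraries 2.79, 3.68, 7.55 and 4.64 CPM. All 7-wk libraries lay below all 2-wk libraries, whereas E18.5 replicate 2 stood above the other 3 libraries of its age and above all 2-wk libraries. The fall from 2 to 7 wks was 2.98-fold (log2 fold change -1.58, SE 0.40, edgeR adjusted p = 0.0106), and it was lower under every scaling tried, but it did not pass without 2-wk replicates 1 and 2 (-1.56, edgeR adjusted p = 0.0814). Its earlier log2 fold change, between E18.5 and 2 wks, was 0.91 (SE 0.39, edgeR adjusted p = 0.0543). It was 1.55 without E18.5 replicate 2 (edgeR adjusted p = 0.000398) and -0.29 once each library's trend over GC content was removed (edgeR adjusted p = 0.273). *Ckb* has the highest GC content of the 10 genes, 60.0%, against 43.4% for *Gatm*, the lowest.

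*Ckmt1* (ENSMUSG00000000308; chromosome 2, 121188195 to 121195706, plus strand), the ubiquitous mitochondrial form, was close to the limit of detection. Its counts were 16, 52, 207 and 14 at E18.5. They were 14, 36, 5 and 9 at 2 wks and 0, 10, 1 and 1 at 7 wks, so 3 of the 4 oldest libraries were under 3 counts. A count of 0 in 7-wk replicate 1 allows a level of up to 0.0602 CPM, for counting error only. Neither interval passed (edgeR adjusted p = 0.351 and 0.178), and although the comparison of 7 wks with E18.5 did (edgeR adjusted p = 0.0192), its libraries overlapped and it did not pass without E18.5 replicate 3, the highest (edgeR adjusted p = 0.109), nor without 7-wk replicate 3 or 4 (0.0581 and 0.0540).

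**Figure D1:**
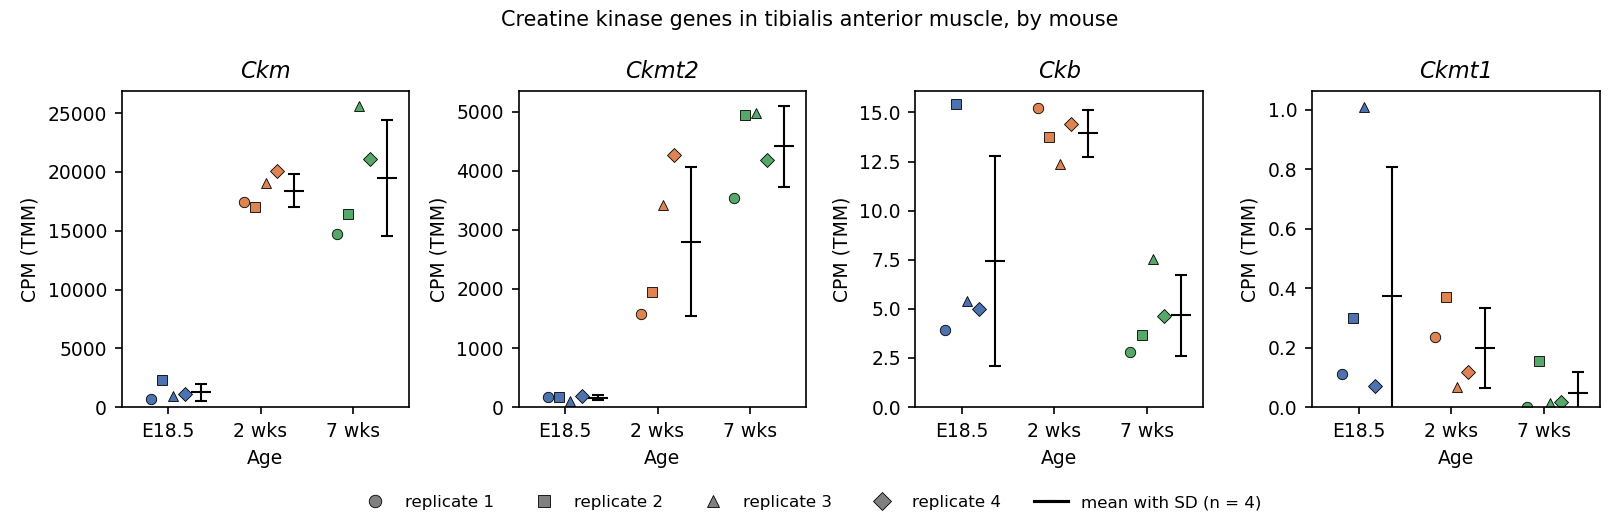
Level of the 4 creatine kinase genes in CPM (TMM; vertical axes, linear and starting at 0, a separate scale for each gene) in each mouse TA at E18.5, 2 wks and 7 wks. Symbols mark replicate numbers and bars the mean and SD of 4 mice; *Ckm* and *Ckmt2* stand far above their E18.5 levels at 2 wks, *Ckb* is lower at 7 wks than at 2 wks in all libraries, and 1 E18.5 library (15.4 CPM) stands apart for *Ckb*.

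Start-site sequences of RefSeq (assembly GRCm38.p6, 250 bases before to 50 after each annotated start, read on the gene's strand) matched 8 of the 10 genes; *Ampd1* and *Slc6a8* were not matched. Those below are shown because the genes moved most (*Ckm*, *Ckmt2* and *Ak1* up, *Gatm* down) or, for *Ckb*, because it is the cytosolic counterpart of *Ckm*. Capitals mark E-boxes, CANNTG, the core recognised by MyoD-family factors, searched on both strands, where the pattern reads the same.
*Ckm*, chr7:19410844-19411143, plus strand: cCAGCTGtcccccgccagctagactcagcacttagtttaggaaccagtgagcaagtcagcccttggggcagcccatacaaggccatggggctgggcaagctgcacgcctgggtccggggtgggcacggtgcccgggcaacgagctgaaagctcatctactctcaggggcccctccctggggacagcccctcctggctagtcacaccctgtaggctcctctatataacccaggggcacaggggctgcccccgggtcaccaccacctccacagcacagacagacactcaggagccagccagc
*Ckmt2*, chr13:91876836-91877135, minus strand: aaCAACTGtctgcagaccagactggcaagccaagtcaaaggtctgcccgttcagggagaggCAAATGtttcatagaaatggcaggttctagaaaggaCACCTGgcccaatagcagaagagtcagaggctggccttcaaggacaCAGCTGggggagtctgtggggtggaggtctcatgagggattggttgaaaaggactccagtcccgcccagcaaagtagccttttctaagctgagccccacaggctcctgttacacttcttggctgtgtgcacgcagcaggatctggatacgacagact
*Ckb*, chr12:111672289-111672588, minus strand: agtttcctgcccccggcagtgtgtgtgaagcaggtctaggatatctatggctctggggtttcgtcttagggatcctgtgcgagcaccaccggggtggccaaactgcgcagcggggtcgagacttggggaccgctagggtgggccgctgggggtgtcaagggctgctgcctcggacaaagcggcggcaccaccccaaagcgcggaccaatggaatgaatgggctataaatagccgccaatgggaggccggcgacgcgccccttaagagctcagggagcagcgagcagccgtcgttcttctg
*Ak1*, chr2:32625187-32625486, plus strand, 1 of 4 starts: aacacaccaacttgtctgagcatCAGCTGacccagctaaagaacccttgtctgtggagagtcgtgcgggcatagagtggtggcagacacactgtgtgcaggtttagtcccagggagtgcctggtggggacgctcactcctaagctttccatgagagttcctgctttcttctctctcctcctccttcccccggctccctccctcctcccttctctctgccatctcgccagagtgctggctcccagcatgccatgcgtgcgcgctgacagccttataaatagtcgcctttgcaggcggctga
*Gatm*, chr2:122611228-122611527, minus strand: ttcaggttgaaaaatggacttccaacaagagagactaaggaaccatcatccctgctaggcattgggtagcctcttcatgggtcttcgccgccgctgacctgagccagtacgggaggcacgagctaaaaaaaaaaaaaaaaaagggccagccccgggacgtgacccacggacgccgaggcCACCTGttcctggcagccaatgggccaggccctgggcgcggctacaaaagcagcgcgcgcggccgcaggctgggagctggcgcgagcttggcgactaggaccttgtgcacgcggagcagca

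*Ckmt2* held 4 E-boxes, *Ckm*, *Gatm* and the *Ak1* start shown 1 each, and *Ckb* 0, while 72.3% of 32851 RefSeq start windows of the same length held at least 1. Among the windows shown, the form CAGCTG, itself an E-box, was present in *Ckm*, *Ckmt2* and *Ak1*, and 16.3% of all windows held it. A start of *Ckmt1*, whose level did not rise, and another start of *Ak1*, neither of them shown, also held CAGCTG. A match to the MEF2 site was found in the *Ckb* window and in the *Ak1* start shown, and in 3.19% of all windows. In both it overlapped the letters TATAAA, held by 13.6% of all windows. The *Ak1* start was chosen among its 4 for this match after the sequences were seen, and the other 3 had none. These are matches of letters only, and binding was not measured.

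Because a ratio of 2 genes within a library does not depend on scaling between libraries, the isoforms were also compared as ratios of counts per kilobase of annotated exon. No GC trend was removed from these counts, and GC content is 52.8% for *Ckm* and 60.0% for *Ckb*. The ratio of *Ckm* to *Ckb* was 56.5, 48.5, 58.3 and 74.2 at E18.5. It was 374, 405, 503 and 454 at 2 wks and 1718, 1449, 1106 and 1484 at 7 wks. The 3 ages did not overlap. Each step was an increase, 7.35-fold to 2 wks (log2 difference 2.88, SE 0.16) and 3.30-fold from 2 to 7 wks (1.72, SE 0.16), both with p = 0.0286 in a two-sided exact permutation test, 0.0429 after Benjamini-Hochberg adjustment over 12 ratio tests, and in the same direction in 16 of 16 pairs of mice. With 4 mice against 4 the smallest p that this test can give is 0.029. The level of the ratio depends on which exons are counted as the gene's length, and with the coding length its geometric mean was 180 at E18.5, 1322 at 2 wks and 4358 by 7 wks, while the change between ages stays as given.

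The *Ckm* to *Ckmt2* ratio behaved otherwise. It was 2.16, 7.43, 5.06 and 3.42 at E18.5. It was 6.27, 4.95, 3.14 and 2.66 at 2 wks and 2.35, 1.87, 2.90 and 2.84 at 7 wks. All ages overlapped, and no difference passed: the log2 difference was -0.03 (SE 0.48) to 2 wks and -0.71 (SE 0.32) from 2 to 7 wks, with adjusted p = 0.943 and 0.103 in two-sided exact permutation tests. Of the summed creatine kinase level per kilobase, *Ckm* made up 78.2% ± 8.22 (SD, n = 4) at E18.5, 79.3% ± 6.26 at 2 wks and 70.9% ± 4.27 by 7 wks, and *Ckmt2* 20.4% ± 8.49, 20.5% ± 6.30 and 29.1% ± 4.28. With the coding length the shares of *Ckmt2* were 11.9%, 11.8% and 17.4%, and the geometric mean ratio of *Ckm* to *Ckmt2* was 7.96, 7.82 and 4.78 in place of 4.08, 4.01 and 2.45. *Ckb* made up 1.35% ± 0.326, 0.186% ± 0.0377 and 0.0506% ± 0.0116. *Ckm* and *Ckmt2* thus held nearly the whole family level at every age, and the share of *Ckb* was lower at each later age in all libraries.

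The ratio of the sarcomeric to the ubiquitous mitochondrial form, *Ckmt2* to *Ckmt1*, rested on few *Ckmt1* reads. It was 96.8 to 2376 at E18.5, 4720 to 41610 at 2 wks and 27692 to 322251 by 7 wks, with 0.5 counts added to each gene. It was higher at 2 wks than at E18.5 in 16 of 16 pairs of mice (log2 difference 4.43, SE 1.30, two-sided exact permutation p = 0.0286, adjusted 0.0429). From 2 to 7 wks the difference of 3.22 (SE 1.12) did not pass (p = 0.0857, adjusted 0.103, in the same exact test), and with counts under 3 set to 3 it was 2.02.

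**Figure D2:**
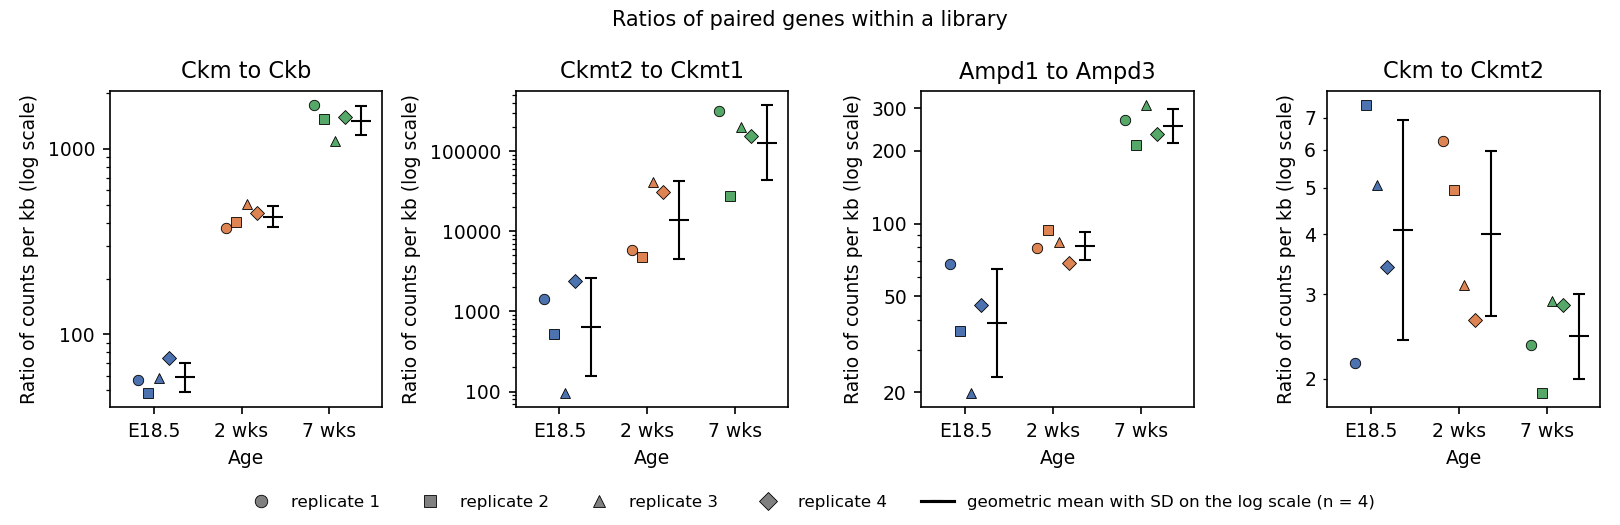
Ratios of gene pairs within each library, as counts per kilobase of annotated exon, on logarithmic vertical axes, at E18.5, 2 wks and 7 wks. Symbols mark replicate numbers and bars the geometric mean with the SD on the log scale (4 mice); *Ckm* to *Ckb* and *Ampd1* to *Ampd3* do not overlap between ages, while *Ckm* to *Ckmt2* overlaps throughout, from 1.87 to 7.43.

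*Ak1* (ENSMUSG00000026817; chromosome 2, 32511448 to 32528933, plus strand), the cytosolic adenylate kinase, also rose before 2 wks and showed no called change after it. Its level was 126, 252, 123.3 and 147 CPM at E18.5. At 2 wks it was 1240, 1353, 1323 and 1411 CPM and at 7 wks 1265, 1393, 1722 and 1551 CPM. The 2-wk libraries lay within a narrow band, all above E18.5, and overlapped those at 7 wks. It rose 8.22-fold to 2 wks (log2 fold change 3.04, SE 0.24, edgeR adjusted p = 2.74e-07). Thereafter the log2 fold change was 0.16 (SE 0.22, edgeR adjusted p = 0.633), and -0.19 under scaling to the total count. Among the 9 adenylate kinase genes, *Ak1* made up 33.7% ± 13.0 (SD, n = 4) of the level per kilobase of annotated exon at E18.5, 78.6% ± 0.671 at 2 wks and 78.1% ± 2.05 by 7 wks. With the coding length these shares were 51.8%, 89.7% and 89.0%.

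*Ampd1* (ENSMUSG00000070385; chromosome 3, 102981272 to 103007037, plus strand), the muscle AMP deaminase, rose in both intervals, as *Slc6a8* did by these tests. Its level was 259, 169, 135 and 162 CPM at E18.5. It was 588, 649, 745 and 675 CPM at 2 wks and 1727, 1330, 1510 and 1277 CPM at 7 wks. No ages overlapped. The rise was 3.66-fold to 2 wks (log2 fold change 1.87, SE 0.21, edgeR adjusted p = 4.75e-06) and 2.20-fold from 2 to 7 wks (1.14, SE 0.20, edgeR adjusted p = 0.00137). Both were higher under every scaling tried. The span of the long non-coding gene *Gm43063*, introns included, overlaps that of *Ampd1* by 1081 bases on the same strand. *Gm43063* read 4.25 to 23.5 CPM over the 12 libraries. Whether the 2 genes share exons, and the part of the overlap in the counts, was not tested.

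*Ampd3* (ENSMUSG00000005686; chromosome 7, 110366387 to 110411617, plus strand), the AMP deaminase known from red blood cells and expressed more widely, was far lower. Its level was 7.88, 9.72, 14.0 and 7.30 CPM at E18.5. It was 15.4, 14.3, 18.3 and 20.4 CPM at 2 wks and 13.3, 13.1, 10.1 and 11.3 CPM at 7 wks. All 2-wk libraries were above both other ages, by a narrow margin. The rise to 2 wks passed (log2 fold change 0.81, SE 0.21, edgeR adjusted p = 0.00339), though under scaling to the total count it was -0.14 (edgeR adjusted p = 0.558), and without 2-wk replicates 3 and 4 it did not pass (0.62, edgeR adjusted p = 0.0586). From 2 to 7 wks the log2 fold change was -0.52 (SE 0.21, edgeR adjusted p = 0.0767), which passed under scaling to the total count (-0.85, edgeR adjusted p = 0.00942). The red blood cell sum, 242 to 1026 CPM at E18.5, 146 to 756 at 2 wks and 92.0 to 130 by 7 wks, is given beside these levels, and its part in them was not tested.

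The *Ampd1* to *Ampd3* ratio per kilobase was 68.1, 36.0, 19.9 and 46.0 at E18.5. It was 79.0, 94.3, 84.2 and 68.4 at 2 wks and 269, 211, 309 and 235 at 7 wks. Ages did not overlap, but the highest E18.5 library and the lowest 2-wk library were nearly equal. The log2 difference was 1.06 (SE 0.38) to 2 wks and 1.65 (SE 0.15) from 2 to 7 wks, each with p = 0.0286 in a two-sided exact permutation test (adjusted 0.0429). Of the level of the 3 AMP deaminase genes, *Ampd1* made up 90.2% ± 4.31 (SD, n = 4), 97.1% ± 0.310 and 99.2% ± 0.0940 at the 3 ages. With the coding length these shares were 85.9%, 95.4% and 98.7%. The geometric mean ratio of *Ampd1* to *Ampd3* was then 19.2, 40.2 and 126 in place of 38.7, 80.9 and 253.

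**Figure D3:**
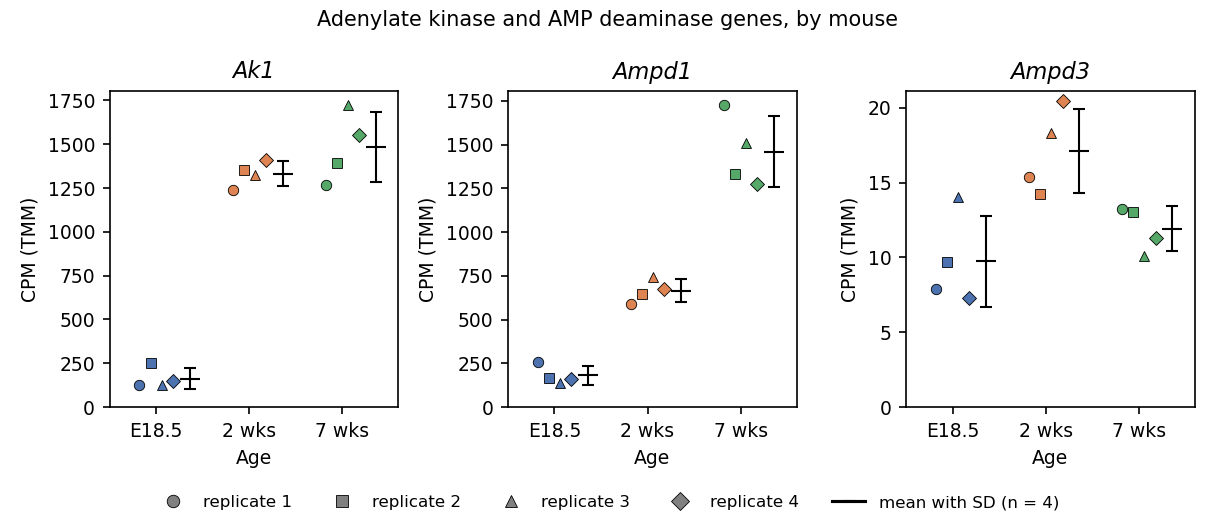
Level of *Ak1*, *Ampd1* and *Ampd3* in CPM (TMM; linear vertical axes starting at 0, a separate scale for each gene) in each mouse at the 3 ages. Symbols mark replicate numbers and bars the mean and SD of 4 mice; *Ak1* reaches its 7-wk range by 2 wks, *Ampd1* rises at both steps, and *Ampd3* has its highest libraries at 2 wks (up to 20.4 CPM).

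The supply genes went in opposite directions. *Slc6a8* (ENSMUSG00000019558; chromosome X, 72716728 to 72726108, plus strand), the creatine importer, read 44.4, 54.6, 37.8 and 40.2 CPM at E18.5. It read 99.2, 114, 141 and 157 CPM at 2 wks and 191, 211, 197 and 191 CPM at 7 wks. The ages did not overlap, and 2-wk replicates 3 and 4 were nearest to the 7-wk level. It rose 2.89-fold to 2 wks (log2 fold change 1.53, SE 0.17, edgeR adjusted p = 4.72e-06). This rise shrank to 0.59 under scaling to the total count and to 0.50 with the GC trend removed, and passed in both (edgeR adjusted p = 0.00213 and 0.0314). The rise of 1.54-fold from 2 to 7 wks (0.63, SE 0.17, edgeR adjusted p = 0.0131) did not pass under scaling to the total count (0.29, edgeR adjusted p = 0.137), without 2-wk replicate 1 (0.51, edgeR adjusted p = 0.0511) or without 2-wk replicates 1 and 2 (0.36, edgeR adjusted p = 0.260).

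*Gatm* (ENSMUSG00000027199; chromosome 2, 122424948 to 122441799, minus strand), which catalyses the first step of creatine synthesis, fell in both intervals. It read 408, 319, 194 and 248 CPM at E18.5. At 2 wks it read 66.1, 50.04, 27.7 and 17.2 CPM and at 7 wks 11.96, 10.996, 6.91 and 8.66 CPM. The 3 ages were fully apart, and at 2 wks replicates 1 and 2 lay above replicates 3 and 4. It fell 7.26-fold to 2 wks (log2 fold change -2.86, SE 0.38, edgeR adjusted p = 2.08e-05) and 4.18-fold more by 7 wks (-2.06, SE 0.37, edgeR adjusted p = 0.00139), 30.4-fold in all. Both falls passed under every scaling, and the later one also without 2-wk replicates 1 and 2 (-1.27, edgeR adjusted p = 0.0282) though smaller. By mean CPM the gene ranked 230 at E18.5, 3509 at 2 wks and 8383 by 7 wks. The fibroblast and macrophage sums also fell with age, the latter from 160 to 196 CPM at E18.5 to 19.4 to 63.8 at 7 wks, and their part in the fall of *Gatm* was not tested.

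*Gamt* (ENSMUSG00000020150; chromosome 10, 80089960 to 80096860, minus strand), the second step of synthesis, fell only after 2 wks by these tests. It read 25.2, 69.5, 33.3 and 34.4 CPM at E18.5. It read 74.5, 66.1, 24.2 and 17.5 CPM at 2 wks and 10.97, 10.4, 14.4 and 9.52 CPM at 7 wks. The 2-wk libraries split into a high and a low pair, the low pair lying under all E18.5 libraries, and all 7-wk libraries were below both earlier ages. The log2 fold change to 2 wks was 0.17 (SE 0.42, edgeR adjusted p = 0.739), but -0.94 without 2-wk replicates 1 and 2 (edgeR adjusted p = 0.0423) and 0.81 without replicates 3 and 4 (edgeR adjusted p = 0.0592). It was also negative under scaling to the total count (-0.71) and with the GC trend removed (-0.75), neither of which passed. The later fall, between 2 and 7 wks, was 4.02-fold (-2.01, SE 0.43, edgeR adjusted p = 0.00444), and without 2-wk replicates 1 and 2 the value was -0.92 and did not pass (edgeR adjusted p = 0.124). Between E18.5 and 7 wks it fell 3.58-fold (-1.84, SE 0.43, edgeR adjusted p = 0.00161). In 2-wk replicates 1 and 2 the smooth muscle sum was 1001 and 771 CPM against 471 and 567, beside the red blood cell difference given above. The span of *Gamt*, introns included, shares 5090 bases with that of *Ndufs7* on the opposite strand. *Ndufs7*, which encodes a complex I subunit, read 4.02 to 19.1 CPM at E18.5, 226 to 371 at 2 wks and 89.9 to 350 by 7 wks. The strand setting of the counting is not given in the sources used here, so how far the overlap entered either count was not tested.

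**Figure D4:**
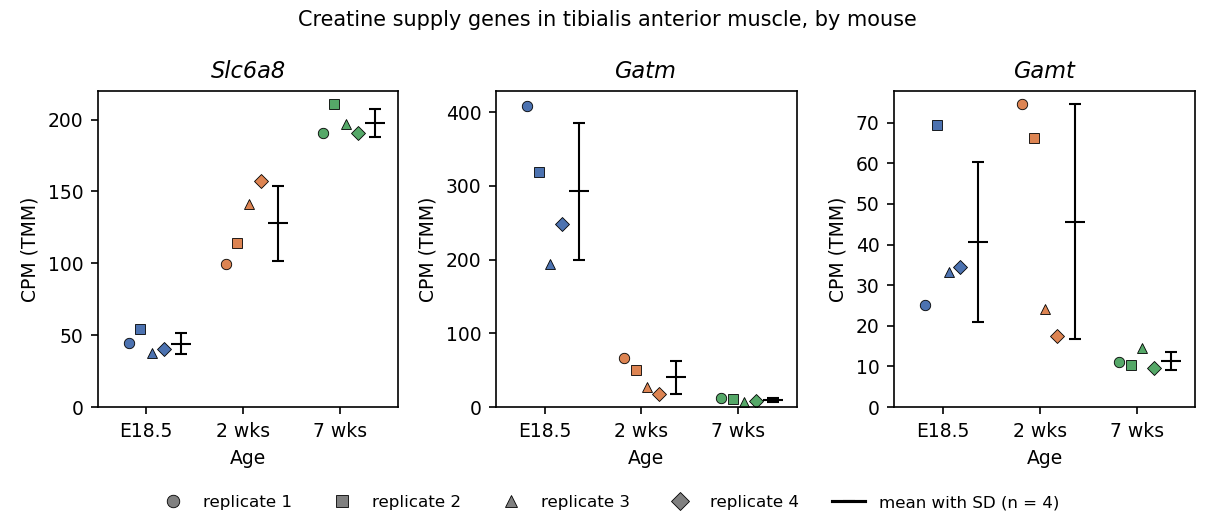
Level of the creatine importer *Slc6a8* and the synthesis genes *Gatm* and *Gamt* in CPM (TMM; linear vertical axes starting at 0, a separate scale for each gene) in each mouse at the 3 ages. Symbols mark replicate numbers and bars the mean and SD of 4 mice; *Slc6a8* rises to about 198 CPM at 7 wks, *Gatm* falls from 292 to 9.63 CPM on average, and *Gamt* splits at 2 wks into replicates 1 and 2 (high) and 3 and 4 (low).

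Several other members share bases with genes on the opposite strand, counted over whole gene spans with introns. For these too the part of the overlap in the counts was not tested. *Ckb* shares 2022 bases with the tRNA methyltransferase gene *Trmt61a*, which read 1.23 to 5.20 CPM over the 12 libraries, a level near that of *Ckb* itself. *Ampd3* shares 12966 bases with *Rnf141*, which read 18.4 to 43.8 CPM, and whose lowest 2-wk value lay within the range of *Ampd3*. *Ckmt1* overlaps *Ppip5k1*, which read 14.4 to 230 CPM against at most 1.01 CPM for *Ckmt1*. The overlapping transcript of *Ckm*, *A930016O22Rik*, read at most 8.68 CPM, far under *Ckm*.

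Whether the change before 2 wks differed from the change after it had a test of its own. It passed for 7 of the 10 genes, beside 38.4% of all genes tested, and in all 7 the later change was the lower of the pair (21.6% of all genes passed in that direction and 16.8% in the other). The difference was -3.78 (log2, SE 0.54) for *Ckm*, -3.46 (SE 0.49) for *Ckmt2* and -2.88 (SE 0.37) for *Ak1*, which rose before 2 wks and showed no called change after it (edgeR adjusted p = 0.000262, 0.000248 and 0.000105). It was -2.48 for *Ckb*, -2.17 for *Gamt*, -1.33 for *Ampd3* and -0.91 for *Slc6a8* (edgeR adjusted p = 0.00975, 0.0258, 0.00958 and 0.0220). These 4 depended on the scaling or on single libraries. Under the total count *Gamt*, *Ampd3* and *Slc6a8* did not pass, which left 4 of the 7. With the GC trend removed *Ckb* and *Gamt* did not pass, and the difference for *Slc6a8* was 0.37 (edgeR adjusted p = 0.418). *Gamt* did not pass without 2-wk replicate 1 or 2 (edgeR adjusted p = 0.122 and 0.104) and was 0.027 without both. *Slc6a8* did not pass without 2-wk replicate 3 or 4 (edgeR adjusted p = 0.0709 and 0.101), *Ampd3* without both of those (0.173), and *Ckb* without either pair of 2-wk replicates, 1 and 2 or 3 and 4 (0.0723 and 0.0593). For *Ampd1* (-0.74, edgeR adjusted p = 0.102) and *Gatm* (0.80, edgeR adjusted p = 0.326) a difference between the intervals was not shown in the main fit. *Ampd1* passed with the GC trend removed (-0.97, edgeR adjusted p = 0.0234), also with the replicate block (0.0303). It passed too without E18.5 replicate 1 (-0.96, edgeR adjusted p = 0.0135) or replicates 1 and 2 (-1.03, 0.0106). *Gatm* passed without 2-wk replicates 1 and 2 (2.42, edgeR adjusted p = 0.0219) but not without replicates 3 and 4 (-0.27, 0.761).

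**Figure D5:**
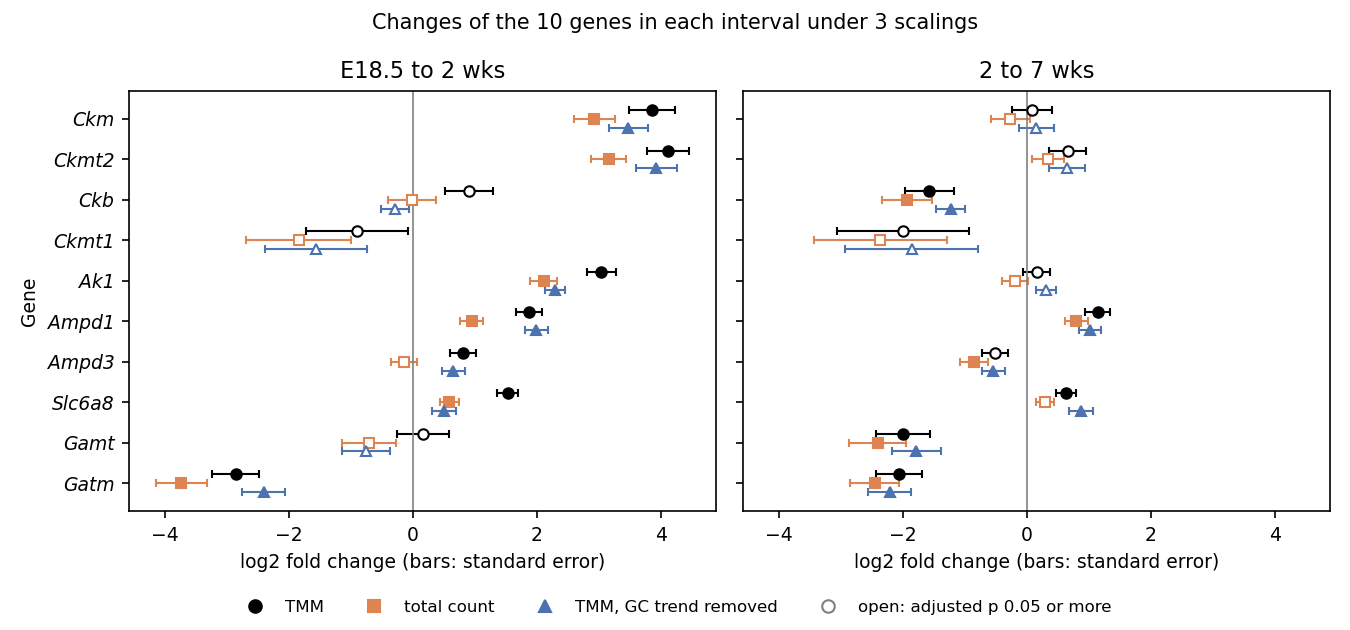
Log2 fold change of each gene (horizontal axis; bars, standard error) from E18.5 to 2 wks (left) and from 2 to 7 wks (right) with TMM scaling, total-count scaling, and TMM with each library's GC trend removed. Filled symbols passed the edgeR test and open ones did not. *Ckm*, *Ckmt2*, *Ak1*, *Ampd1*, *Slc6a8* and *Gatm* keep their direction to 2 wks under all 3 scalings, and *Ckb*, *Ampd3* and *Gamt* do not.

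Per kilobase of annotated exon, the order of the 10 genes changed most between E18.5 and 2 wks. At E18.5 *Ckm* led with 128 CPM per kilobase ± 71.8 (SD, n = 4), above *Ampd1* (47.9 ± 14.3), *Gatm* (43.5 ± 13.8) and *Ckmt2* (29.0 ± 6.61), and from *Ampd1* down to *Ak1* (16.2 ± 6.06) neighbours overlapped. At 2 wks *Ckm* (1865 ± 144) was followed by *Ckmt2* (503 ± 227), *Ampd1* (176 ± 17.2), *Ak1* (133 ± 7.11) and *Slc6a8* (24.4 ± 4.99), with no overlap between neighbours. This order of 5 was kept at 7 wks, at 1973 ± 498, 793 ± 124, 386 ± 53.7, 148 ± 19.8 and 37.7 ± 1.82 CPM per kilobase. *Gatm* moved from position 3 at E18.5 to 7 at 2 wks and 9 at 7 wks, where it overlapped *Ckb*. With the coding length, *Ak1* came in position 2 at E18.5 and 2 wks and 3 at 7 wks. *Gatm* then came in position 3 at E18.5 and 7 at both 2 and 7 wks. Positions between *Ckmt2*, *Ak1* and *Ampd1*, and that of *Gatm* at 7 wks, thus rest on the length used.

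As a description over the 12 libraries, which share age, the genes whose centred log2 CPM lay nearest to each of the 10 were named among 4089 well expressed genes. Nearest to *Ckm* were *Cystm1*, the muscle phosphoglycerate mutase *Pgam2* and *Wfdc1*, with root mean square differences of 0.16 to 0.18 log2 units and r of 0.997. *Ak1* lay nearest to the fast troponin genes *Tnnc2* and *Tnni2* and the sarcoglycan gene *Sgca* (0.11 to 0.13, r of 0.998 to 0.999). *Ckmt2* lay nearest to the small heat shock protein gene *Hspb6* and to *Adss1*, an enzyme of the purine nucleotide cycle (0.28 for both). *Ampd1* lay nearest to *Phkb*, a subunit of phosphorylase kinase (0.20), and *Slc6a8* to the muscle calpain *Capn3* (0.13). *Gatm* lay nearest to the imprinted genes *Zim1* (0.32) and *Rian* (0.37) and the glypican gene *Gpc3* (0.39). *Gamt* lay nearest to the smooth muscle actin *Acta2* (0.35), *Ckb* to the lamin gene *Lmna* (0.22) and *Ampd3* to *Ppm1f* (0.26). No gene came close to *Ckmt1*, for which the smallest difference was 0.97, to the haemoglobin gene *Hbb-bs*.

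Beyond the 10 genes, 43 others of adenine nucleotide metabolism were followed, of which 40 had enough counts to test. Up to 2 wks 31 of the 40 passed (21 higher, 10 lower), beside 65.7% of all genes, with a median log2 fold change of 0.70. After 2 wks 15 did (9 higher, 6 lower), beside 27.5%, with a median of 0.16. Under scaling to the total count the split was 12 higher and 18 lower in the first interval and 3 higher and 12 lower in the second, and upper-quartile scaling gave 7 higher and 9 lower in the second. The purine nucleotide cycle, which turns IMP back into AMP, had 3 of 4 genes called in the first interval (2 higher, 1 lower), beside the shares of all genes given above. Its muscle-type adenylosuccinate synthase *Adss1* rose from 44.4 ± 18.3 to 671 ± 218 CPM (SD, n = 4; log2 fold change 3.92, SE 0.33, edgeR adjusted p = 4.84e-07), while its counterpart *Adss2* fell (-0.54, edgeR adjusted p = 0.00703). Between 2 and 7 wks 1 of the 4 passed, close to the 27.5% of all genes. This was *Ampd2*, the AMP deaminase of many non-muscle tissues, which fell (-1.04, edgeR adjusted p = 0.00571).

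Mitochondrial export of ATP, which runs through the adenine nucleotide translocases and the voltage-dependent anion channels, had 5 of 6 genes called before 2 wks, beside 65.7% of all genes (4 higher, beside 31.5%, and 1 lower, beside 34.2%). The heart and muscle translocase *Slc25a4* rose from 437 ± 103 to 4926 ± 712 CPM (log2 fold change 3.49, SE 0.26, edgeR adjusted p = 1.72e-07). The low *Slc25a31*, known from testis, fell (-2.66, edgeR adjusted p = 0.000440). Between 2 and 7 wks 3 of the 6 passed, beside 27.5% of all genes: *Vdac3* had the larger of 2 rises (0.72, edgeR adjusted p = 0.00789) and the translocase *Slc25a5* fell (-1.03, edgeR adjusted p = 0.00299). Of the 8 genes of AMP-activated protein kinase, the sensor of AMP, and its upstream kinase, 7 passed to 2 wks (5 higher, 2 lower), beside 65.7% of all genes, and 2 after it (both higher), close to the 27.5% of all genes. *Prkag3*, the skeletal muscle regulatory subunit, rose from 31.5 ± 7.06 to 151 ± 36.5 CPM (2.26, edgeR adjusted p = 1.12e-06), *Prkag2* fell (-1.68, edgeR adjusted p = 0.000359), and *Prkab2* had the largest rise of the list after 2 wks (1.46, edgeR adjusted p = 0.00139).

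For the lists that follow, 31.5% of all genes were higher and 34.2% lower to 2 wks, and 13.5% and 13.9% after it. Of the 7 other adenylate kinases tested, 2 rose and 2 fell to 2 wks, led by *Ak6* (log2 fold change 1.36, edgeR adjusted p = 2.41e-05) and *Ak5* (-1.99, edgeR adjusted p = 0.000176), and *Ak6* rose (0.59, edgeR adjusted p = 0.0273) and the barely detected *Ak8* fell (-1.44, edgeR adjusted p = 0.0374) after it. Among 11 tested genes of AMP and IMP breakdown and salvage, 6 rose and 3 fell to 2 wks. Xanthine dehydrogenase *Xdh*, which oxidises the purine bases to urate, had the largest rise (3.60, SE 0.41, edgeR adjusted p = 6.49e-06) and the ecto-nucleotidase *Nt5e* the largest fall (-2.43, edgeR adjusted p = 1.72e-07). After 2 wks 3 rose and 2 fell, with the cytosolic AMP nucleotidase *Nt5c1a* at 2.41 (edgeR adjusted p = 0.0160) and *Nt5c* at -1.16 (edgeR adjusted p = 0.00725). *Nt5c1a* varied between mice, from 0.381 to 2.29 CPM at 2 wks and from 1.07 to 12.1 CPM at 7 wks. Of the 4 nucleoside diphosphate kinases tested, *Nme4* fell in both intervals (-1.49 and -1.39, edgeR adjusted p = 0.000242 and 0.00276) and *Nme6* rose after 2 wks (0.65, edgeR adjusted p = 0.00706). The rise of *Nme2* to 2 wks (1.71, edgeR adjusted p = 0.00141) is uncertain, since it read only 0.0975 to 0.679 CPM at those ages and can share reads with its near copy *Nme1*.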

How the data were processed

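Poly(A)-selected libraries of TA muscle from 4 wild-type mice at each of 3 ages were made with a stranded kit and sequenced as paired 100-base reads. The deposited values are raw counts per Ensembl gene. The authors trimmed reads with cutadapt 1.10 and mapped them with STAR 2.5.3, and the submitters' processing notes name HTSeq 0.6.1 for counting. The methods name the GRCm39 build and the notes mm10. The annotation and strand setting are not given in the sources used here. The authors' transcript comparison with Cuffdiff cannot be repeated on gene counts, so edgeR 4.0.16 (R 4.3.3, limma 3.58.1) was used.

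filterByExpr left 19276 of 55450 genes. Counts were scaled by TMM and fitted with the quasi-likelihood model, all 12 libraries in 1 fit with age as the only term, with Benjamini-Hochberg adjusted p-values (threshold 0.05). The SE given with an edgeR log2 fold change is the size of that change divided by the square root of the test's F statistic. The biological coefficient of variation was 0.279. Log2 ratios of gene pairs, with 0.5 counts added to each, were compared by two-sided exact permutation tests over 70 regroupings and adjusted over 12 tests (scipy 1.17.1). Coordinates, lengths and GC content come from GENCODE vM39 on GRCm39; 51477 of the table's genes have an identifier there and 98.7% of tested genes have a GC value. Start-site sequences come from RefSeq on GRCm38.p6. No 2 libraries of an age were copies of each other (the smallest chi-square over its degrees of freedom was 34.3 in 18 pairs). Whether same-age libraries came from separate litters is not stated, and p-values set the differences between ages against the spread between these mice. With these depths, counting error was small beside that spread for 9 of the 10 genes; *Ckmt1*, and *Ak8* and *Nme2* among the other genes named, rest on few counts.

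The 10 genes and all lists were chosen with earlier results of these data known. The 10 are always named; of each other list, the called gene with the largest rise and the largest fall in each interval is named. Nearest genes are the 3 with the smallest root mean square difference of centred log2 CPM among genes whose mean log2 CPM reached 5, and some of these are named. Alternatives were total-count, upper-quartile and relative log expression scaling, size factors without the 20 most abundant and the mitochondrial genes, DESeq2 1.42.0, no low-count filter or one of 10 counts in all libraries, a block for the replicate number, only the 8 libraries compared, a log2 fold change beyond 1, removal of the GC trend, and each library left out. Added after seeing the data were pairs of libraries left out, other gene lengths, and counts under 3 set to 3. The procedure was also run on simulated counts with fewer changed genes and a smaller spread than these data, as a check of the code only.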

Additional observations from a re-analysis of the deposited data

Results flagged for a closer look

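In 2 of 30 sets of 4 libraries (10 genes at 3 ages), 1 library lay far from the other 3 of its age relative to their range, against 1.5 sets that chance would give. *Ckb* read 15.4 CPM in E18.5 replicate 2 and 3.91 to 5.38 CPM in the other 3 libraries of that age. The same library also had the highest *Ckm*, *Ak1*, *Slc6a8* and *Gamt* of its age. *Ckmt1* read 0.155 CPM, from 10 counts, in 7-wk replicate 2 and 0 to 0.0165 CPM, at most 1 count, in the other 3.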

How the results depend on the processing

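Across 28 alternatives each, the changes of *Ckm*, *Ckmt2*, *Ak1*, *Ampd1*, *Slc6a8* and *Gatm* to 2 wks kept their direction and their call, as did the fall of *Gatm* to 7 wks. Scaling to the total count turned the log2 fold change to 2 wks of *Ckb* (-0.017), *Ampd3* (-0.14) and *Gamt* (-0.71), that of *Ckm* (-0.27) and *Ak1* (-0.19) from 2 to 7 wks, and that of *Ampd3* between E18.5 and 7 wks (-0.998, edgeR adjusted p = 0.000714), and it left 4 of the genes called for the difference of the intervals. Upper-quartile scaling gave -0.022 for *Ckm* from 2 to 7 wks. Removing the GC trend turned *Ckb* (-0.29) and *Gamt* (-0.75) to 2 wks and the difference of the intervals for *Slc6a8* (0.37), with -0.25, -0.94 and 0.31 when the replicate block was fitted too. The cause of these turns was not tested.

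Requiring a log2 fold change beyond 1, a stricter test by construction, left 1 of the 10 genes called from 2 to 7 wks and 3 for the difference of the intervals. It left 19 of the other pathway genes to 2 wks and 0 from 2 to 7 wks by edgeR's glmTreat (4 at an unadjusted p under 0.05), where 15 passed edgeR's test of any change and 19 passed DESeq2. Among all genes it left 5507, 561 and 7574 in the 3 comparisons of ages and 2463 for the difference. Without 2-wk replicates 1 and 2, 2 of the 10 and 2 of the other pathway genes were called from 2 to 7 wks, with 1566 of all genes, and 3721 for the difference of the intervals. *Gamt* was then -0.94 to 2 wks and 0.027 for the difference, *Ckm* -0.048 from 2 to 7 wks and *Ckmt1* 1.01 for the difference. Without 2-wk replicates 3 and 4 the difference of the intervals was called for 4 of the 10 and for 3571 of all genes, and was -0.27 for *Gatm*. Without E18.5 replicates 3 and 4, *Gamt* was -0.057 to 2 wks.

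Leaving out 1 library at a time gave ranges of -1.43 to 0.32 for *Ckmt1* and -0.14 to 0.56 for *Gamt* to 2 wks, and -0.080 to 0.19 for *Ckm* from 2 to 7 wks. The count of all genes called from 2 to 7 wks was 3472 to 6145, lowest without 2-wk replicate 1. For the ratios, 4 against 3 mice cannot give a two-sided exact permutation p under 0.057, so the calls are lost by construction. The log2 difference of *Ckm* to *Ckb* was 2.79 to 2.99, 1.63 to 1.84 and 4.51 to 4.72 in the 3 comparisons of ages. That of *Ckmt2* to *Ckmt1* was 3.52 to 5.06 to 2 wks and 6.74 to 8.38 between E18.5 and 7 wks. That of *Ampd1* to *Ampd3* was 0.74 to 1.34, 1.55 to 1.73 and 2.39 to 2.98, and that of *Ckm* to *Ckmt2* to 2 wks was -0.33 to 0.26.

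A pairing of the libraries by replicate number was not shown. Deviations from the age means correlated at -0.28 to 0.51 in 12 same-number pairs, and 5 were over 0.1. In 36 pairs of other numbers they correlated at -0.50 to 0.38, and 10 were over 0.1. A library correlated best with its own number in 9 of 24 cases. With the replicate block 8, 5 and 8 of the 10 genes were called in the 3 comparisons of ages, beside 12470, 5149 and 13611 of all 19276 genes tested. *Ckb* to 2 wks was the added one (1.09, edgeR adjusted p = 0.0280). In the block, ratios were compared by sign flips, whose smallest two-sided exact p with 4 pairs is 0.125, so none passed; the values were unchanged at 2.88, 1.72 and 4.60 for *Ckm* to *Ckb*, 4.43 and 7.65 for *Ckmt2* to *Ckmt1*, and 1.06, 1.65 and 2.71 for *Ampd1* to *Ampd3*. Depth limits *Ckmt1* alone among the 10.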
